A study of Mus musculus with 4 samples.

Results

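The Usp17l genes of the mouse encode a small family of deubiquitinases, and 5 of them, Usp17la, Usp17lb, Usp17lc, Usp17ld and Usp17le, were examined here. They were taken by their names from a table of 50559 genes. All 5 were among the 18144 genes with enough counts to be tested. The table came from RNA-seq of mouse embryonic stem cells (ESCs), pluripotent cells taken from the blastocyst. Cells of the siCnot1 group received siRNA that targets Cnot1, and cells of the siNT group received non-targeting siRNA. Each group had 2 biological replicates, collected 48 h after transfection. CNOT1 holds together CCR4-NOT, the complex that shortens the poly(A) tails of mRNAs. The labels give the E14 line for both groups, and both were grown on gelatin in serum replacement medium with LIF. The study's methods describe ESCs that carry a tdTomato reporter under a MERVL promoter. They list more than 1 siRNA against Cnot1 and do not say which, or whether only 1, was used for these libraries. An effect of the siRNA on other mRNAs cannot be told apart from the loss of Cnot1.

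Ubiquitin-specific proteases are cysteine proteases that remove ubiquitin from proteins and so can spare them from the proteasome or end a signal. The founding members of the USP17 family, Dub-1 and Dub-2, were described as genes that cytokines switch on in haematopoietic cells. In the early mouse embryo Usp17l transcripts belong to the burst of transcription at the 2-cell stage, together with Zscan4 genes and the MERVL retrotransposon, and a few cells in an ESC culture pass through a state that expresses the same transcripts. The gene table of RefSeq lists Dub1 as a synonym of Usp17la, Dub1a of Usp17lb, Dub2 of Usp17lc, Dub2a of Usp17ld and Dub3 of Usp17le.

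All 5 genes lie on chromosome 7 among olfactory receptor genes. In the positions of the count table, taken as GRCm39, Usp17ld spans 102899293 to 102901712 on the minus strand and Usp17lc 103065903 to 103068381 on the plus strand, 164.2 kb apart. A gap of 1348.8 kb separates Usp17lc from the remaining 3 genes. Usp17le spans 104417168 to 104426677 on the minus strand, Usp17lb 104489464 to 104491790 on the minus strand and Usp17la 104506223 to 104511874 on the plus strand, with gaps of 62.8 kb and 14.4 kb between neighbours. No other gene of the table overlaps any of them.

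The promoters of the family are closely alike, and a stretch of each is printed to show what its members have in common upstream of their starts. Sequences were taken from RefSeq on GRCm38.p6, in which 4 of the 5 members had a promoter entry, all but Usp17le. Each stretch has 90 bases, reads 5′ to 3′ on the strand of its gene and lies within the 250 bases before the annotated start. The stretches were lined up on the letters CCACACCC, so their distances from the annotated start differ. They begin 191 bases before it in Usp17ld, 169 in Usp17lc, 112 in Usp17lb and 127 in Usp17la. Capitals mark the letters CCACACCC, ATTGG, which is CCAAT on the opposite strand, and TATAAA.
Usp17ld, chr7:103252607-103252696, minus strand: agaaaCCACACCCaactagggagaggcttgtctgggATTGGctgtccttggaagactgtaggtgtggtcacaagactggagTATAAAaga
Usp17lc, chr7:103416527-103416616, plus strand: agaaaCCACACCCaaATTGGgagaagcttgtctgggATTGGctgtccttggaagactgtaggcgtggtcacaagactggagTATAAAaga
Usp17lb, chr7:104842606-104842695, minus strand: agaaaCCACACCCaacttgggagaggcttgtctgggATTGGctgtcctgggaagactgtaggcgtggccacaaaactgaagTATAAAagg
Usp17la, chr7:104856889-104856978, plus strand: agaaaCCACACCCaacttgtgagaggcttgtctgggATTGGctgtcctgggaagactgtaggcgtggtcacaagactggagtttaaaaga

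In these stretches 79 of 90 positions held the same base in all 4 genes. Counted from 1 at the 5′ end, Usp17la differed from each of the other 3 at G20T and at A83T, the latter inside the letters TATAAA. Over the 250 bases before the start, on both strands, TATAAA was found in 3 of 4 members and in 12.4% of 32851 promoters of the same length. CCAAT, the letters bound by the factor NF-Y, was found in 4 of 4 members against 33.8% of promoters. CCACACCC, which resembles the sites of KLF factors, was found in 4 of 4 against 3.20%. The motifs were chosen after the sequences had been seen, the members are copies of each other, and a match is a description of letters and not of binding. A further, longer motif with unspecified bases at its centre was also searched. It was found in 0 of 4 members and in 0.177% of the 32851 promoters, and for so rare a motif its absence from 4 members says little.

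The transcripts are alike too, so the authors' counting may have divided reads among members. Identity was taken over the best-aligned part of the longest GENCODE M21 transcripts of each pair, not over their full length. It was 97.8% over 1987 aligned positions for Usp17lc with Usp17ld and 94.7% over 1889 for Usp17la with Usp17le. The other 8 pairs had from 85.6% to 90.6%. Of the 100-base windows of Usp17lc, 32.3% also occur in another member, and for Usp17ld this share was 39.5%. It was 10.1% for Usp17lb, 5.48% for Usp17le and 3.32% for Usp17la. With 50-base windows the shares were higher, from 15.3% for Usp17la to 50.4% for Usp17ld. Usp17lc and Usp17ld share 745 of the 100-base windows with each other, of 2304 in Usp17lc and 1888 in Usp17ld. Reads from these windows cannot be assigned to 1 gene by sequence, and how such reads were counted is not given in the sources used here. The values of Usp17lc and Usp17ld are therefore the least certain as single genes, and the sum of the 5 does not depend on how reads were divided within the family, although reads dropped for matching several genes would be missing from it.

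**Figure D1:**
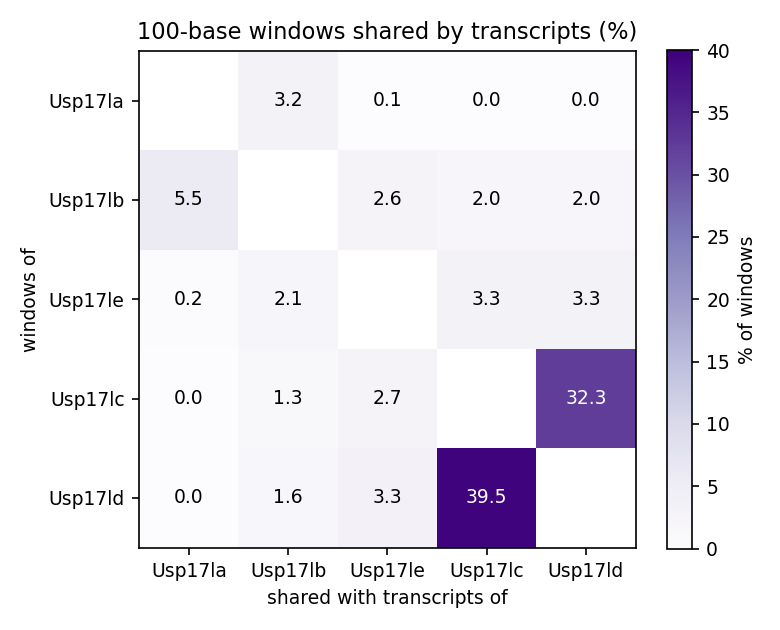
Share of 100-base windows of the annotated transcripts of each Usp17l gene that also occur in each other member, in percent of the windows of the row's gene. Usp17lc and Usp17ld share most with each other, 32.3% and 39.5% of their windows, and the other 3 genes have at most 10.1% of their windows in common with all other members together.

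Library totals lay between 32135824 and 32557440 counts, so depth was close to equal in the 4 libraries. Cnot1, the targeted gene, had 912 and 985 normalized CPM (counts scaled to library size and edgeR's TMM factors) in siNT and 185 and 192 in siCnot1. Its log2 fold change was -2.33 (SE 0.0587, adjusted p = 2.37e-18, edgeR, quasi-likelihood, adjusted by Benjamini-Hochberg over all genes tested). Among all genes tested, 2719, 15.0%, were higher in siCnot1 at an adjusted p under 0.05 and 2668, 14.7%, were lower. With library totals in place of TMM these were 3989 and 1567, and the median log2 fold change of all genes tested moved from 0.0084 to 0.12.

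All 5 Usp17l genes were higher in siCnot1 than in siNT, by 1.74-fold to 4.17-fold, each with an adjusted p under 0.05, against 15.0% of all genes tested that were called higher. In each of them both siCnot1 libraries lay above both siNT libraries, which was also true of 32.7% of all genes tested. Every adjusted p given for a gene or a sum is from edgeR's quasi-likelihood test over the whole table with n = 2 per group. The separate changes are not 5 independent observations, since members share sequence and come from the same 4 libraries. More cells in a 2-cell-like state and more Usp17l RNA per cell cannot be told apart in bulk RNA.

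Usp17le, listed also as Dub3, had the largest change of the 5. It was counted 189 and 191 times in siNT and 794 and 907 times in siCnot1, that is 6.07 and 6.09 against 23.7 and 27.1 normalized CPM. The siNT libraries were nearly equal and the siCnot1 libraries stood well apart from them. Its mean rose from 6.08 ± 0.0130 to 25.4 ± 2.40 (SD, n = 2 per group), and the log2 fold change was 2.06 (SE 0.129, adjusted p = 1.05e-10), which placed it at rank 252 of 18144 genes by log2 fold change.

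Usp17la, whose synonym Dub1 is that of the founding cytokine-induced gene, was counted 168 and 220 times in siNT and 599 and 708 times in siCnot1. In normalized CPM this came to 5.40 and 7.01 against 17.9 and 21.1, with more scatter between the siNT libraries than for Usp17le and no overlap between the groups. The mean rose from 6.20 ± 1.14 to 19.5 ± 2.31 (SD, n = 2 per group), and the log2 fold change was 1.65 (SE 0.148, adjusted p = 1.77e-08). Usp17lb, its nearest neighbour on the chromosome, was counted 290 and 278 times in siNT and 746 and 787 times in siCnot1, or 9.31 and 8.86 against 22.3 and 23.5 normalized CPM. Both siNT libraries of Usp17lb were above those of any other member. Its mean rose from 9.09 ± 0.320 to 22.9 ± 0.882 (SD, n = 2 per group), and the log2 fold change was 1.33 (SE 0.120, adjusted p = 2.01e-08).

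The Dub2-type genes Usp17lc and Usp17ld, which lie together at the other end of the region, rested on fewer counts. Usp17lc was counted 191 and 149 times in siNT and 320 and 316 times in siCnot1, or 6.13 and 4.75 against 9.54 and 9.44 normalized CPM. Its mean rose from 5.44 ± 0.979 to 9.49 ± 0.0776 (SD, n = 2 per group), the smallest change of the family, with a log2 fold change of 0.80 (SE 0.173, adjusted p = 0.00103). The siNT libraries of Usp17lc differed from each other, and without siNT replicate 2, the lower one, the log2 fold change was 0.63 and the adjusted p 0.0808.

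Usp17ld was the least counted member, with 50 and 76 counts in siNT and 146 and 155 in siCnot1, or 1.61 and 2.42 against 4.35 and 4.63 normalized CPM. Its mean rose from 2.01 ± 0.578 to 4.49 ± 0.193 (SD, n = 2 per group), and the log2 fold change was 1.16 (SE 0.262, adjusted p = 0.00163). Here too the siNT libraries carried most of the scatter, and without siNT replicate 1 the log2 fold change was 0.89 and the adjusted p 0.0907. At the threshold the study used, an unadjusted p of at most 0.05 with a log2 fold change of at least 1, 4 of the 5 members counted as higher and Usp17lc did not, against 6.18% of all genes tested.

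**Figure D2:**
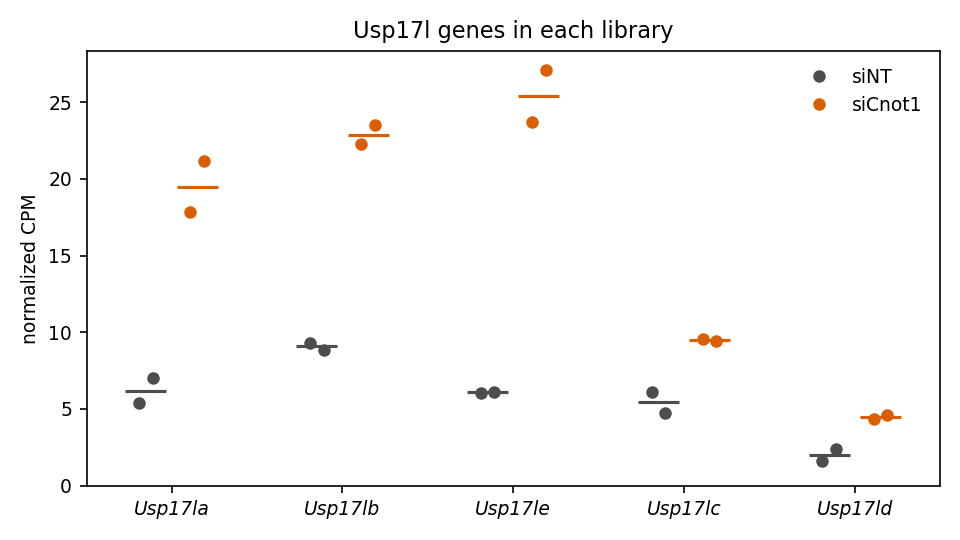
Normalized CPM of each Usp17l gene in the 2 siNT and 2 siCnot1 libraries on a linear axis from 0, with 1 point per library and a line at each group mean. In every member both siCnot1 points lie above both siNT points, from 4.35 and 4.63 against 1.61 and 2.42 in Usp17ld to 23.7 and 27.1 against 6.07 and 6.09 in Usp17le.

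Summed over the family, the 5 genes were counted 888 and 914 times in siNT and 2605 and 2873 times in siCnot1, or 28.5 and 29.1 against 77.7 and 85.8 normalized CPM. The siNT sums differed less between replicates than those of most single members. The mean rose from 28.8 ± 0.431 to 81.7 ± 5.71 (SD, n = 2 per group), 2.84-fold, a log2 fold change of 1.50 (SE 0.0835, adjusted p = 1.43e-11). Without Usp17lb, the member with most counts in siNT, the remaining sum had a log2 fold change of 1.58 (SE 0.0954, adjusted p = 5.5e-11).

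**Figure D3:**
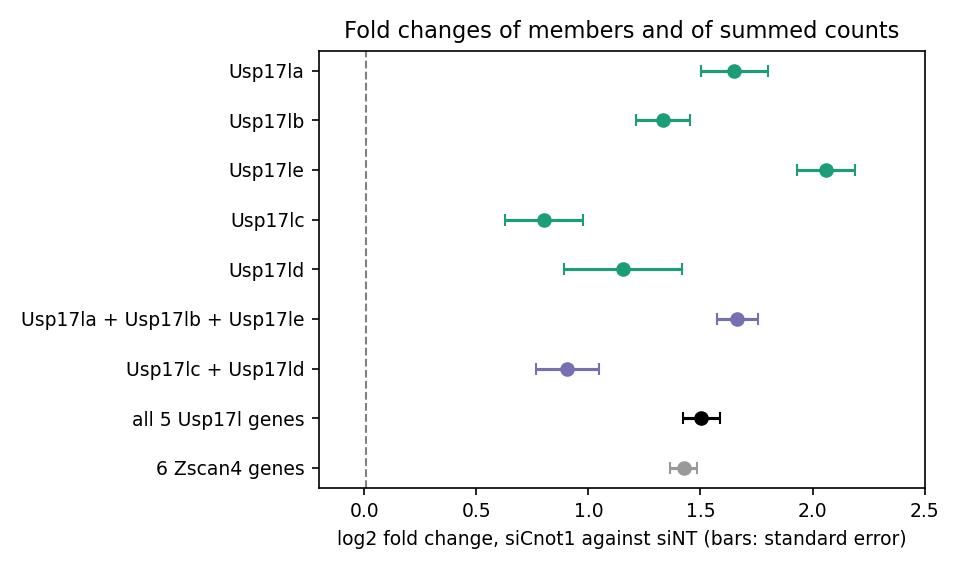
Log2 fold change of siCnot1 against siNT for the 5 Usp17l genes, their sum and the Zscan4 sum, with bars for 1 standard error and a dashed line at the median of all 18144 genes tested, 0.0084. Also drawn are the sum of Usp17la, Usp17lb and Usp17le, at 1.66, and that of Usp17lc and Usp17ld, at 0.91. This grouping was chosen after the values had been seen. All lie to the right of the line, between 0.80 for Usp17lc and 2.06 for Usp17le, with the Usp17l sum at 1.50 and the Zscan4 sum at 1.42.

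The size of the change differed among members. These differences are given as descriptions, since an exact test on the ratio of 2 members in each library cannot go below p = 0.333. The log2 fold change of Usp17le was above that of Usp17lc by 1.26 (combined SE 0.215). The ratio of their counts was 0.990 and 1.28 in the siNT libraries and 2.48 and 2.87 in the siCnot1 libraries, without overlap. In log2 fold change Usp17le was above Usp17lb by 0.73 (combined SE 0.176). That of Usp17la was above that of Usp17lc by 0.85 (combined SE 0.227). Neighbours in the order of change were closer, with 0.41 (combined SE 0.196) between Usp17le and Usp17la, 0.32 (combined SE 0.19) between Usp17la and Usp17lb, 0.18 (combined SE 0.288) between Usp17lb and Usp17ld and 0.35 (combined SE 0.314) between Usp17ld and Usp17lc. The combined errors treat the genes as independent.

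The make-up of the family's counts differed accordingly. Usp17le made up 21.3% (95% Wilson interval 18.7 to 24.1) and 20.9% (18.4 to 23.7) of the family's counts in siNT and 30.5% (28.7 to 32.3) and 31.6% (29.9 to 33.3) in siCnot1. Its mean share rose by 9.93 percentage points, with a replicate SD of 0.578, and the intervals of the groups did not overlap. For Usp17lc the shares were 21.5% (18.9 to 24.3) and 16.3% (14.0 to 18.8) in siNT and 12.3% (11.1 to 13.6) and 11.0% (9.91 to 12.2) in siCnot1, lower in both siCnot1 libraries. Usp17lb went from 32.7% and 30.4% to 28.6% and 27.4%, without overlap of the shares, although their intervals overlapped. Usp17la, at 18.9% and 24.1% against 23.0% and 24.6%, and Usp17ld, at 5.63% and 8.32% against 5.60% and 5.40%, did not move by more than the replicates of siNT differed. The intervals cover counting error only, and no test of 2 against 2 libraries can give a two-sided exact p below 0.333.

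Along the chromosome, the 3 genes that lie close together, Usp17le, Usp17lb and Usp17la, and the pair Usp17lc and Usp17ld differed in size of change. The grouping was chosen after the values had been seen. The sum of the 3 was counted 647 and 689 times in siNT and 2139 and 2402 times in siCnot1, a log2 fold change of 1.66 (SE 0.0923, adjusted p = 1.39e-11). The sum of the pair was counted 241 and 225 times in siNT and 466 and 471 times in siCnot1, a log2 fold change of 0.91 (SE 0.140, adjusted p = 2.87e-05). This pair sum is untouched by how reads were divided between Usp17lc and Usp17ld. The ratio of these sums was 2.68 and 3.06 for the siNT libraries and 4.59 and 5.10 for the siCnot1 libraries, with no overlap.

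**Figure D4:**
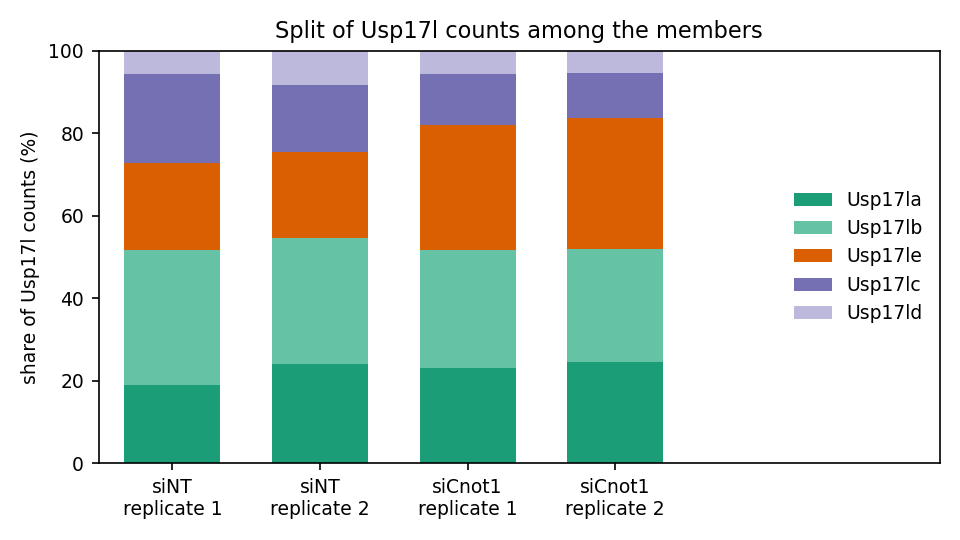
Share of each Usp17l gene in the summed counts of the family, in percent, as stacked bars for the 4 libraries. Usp17le rose from 21.3% and 20.9% in siNT to 30.5% and 31.6% in siCnot1 and Usp17lc went from 21.5% and 16.3% to 12.3% and 11.0%. The 95% Wilson intervals, which are not drawn, overlapped between the groups for Usp17la, Usp17lb and Usp17ld.

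Levels between members were compared as normalized CPM per kb of the listed gene length. In siNT Usp17lb was highest at 5.90 ± 0.207, followed by Usp17lc at 3.21 ± 0.577, Usp17le at 2.94 ± 0.00630, Usp17la at 2.34 ± 0.432 and Usp17ld at 1.23 ± 0.353 (SD, n = 2 each). The levels of Usp17lc and Usp17le in siNT differed by less than the SD of Usp17lc. In siCnot1 the order was Usp17lb at 14.8 ± 0.572, Usp17le at 12.3 ± 1.16, Usp17la at 7.36 ± 0.874, Usp17lc at 5.59 ± 0.0457 and Usp17ld at 2.74 ± 0.118 (SD, n = 2 each). Usp17lb was thus the highest member per length in both groups and Usp17ld the lowest, and Usp17lc moved from the second place to the fourth.

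No tested gene around the family was called with it under TMM, though 2 were called higher with library totals. Within 500000 bases of the outermost members the table lists 186 other genes, of which 139 are olfactory receptor genes and 163 had no counts in any library. Of the 9 with enough counts to be tested, edgeR's quasi-likelihood test called 0 higher or lower, against 15.0% higher and 14.7% lower over all genes tested. DESeq2 and limma-voom also called 0 of the 9 after adjustment. At an unadjusted p under 0.05, edgeR had 1 of the 9 higher and 0 lower. The median log2 fold change of these 9 genes was 0.032, with a range from -0.44 to 0.55. Their standard errors ran from 0.0541 to 0.715. In the least counted neighbours a change as large as that of some Usp17l genes may therefore have gone undetected. Trim12c, of the TRIM family of ubiquitin ligases, was the 1 with an unadjusted p under 0.05, at 0.55 (SE 0.217, adjusted p = 0.0617). Trim6, of the same family, was well counted, at 344 and 352 normalized CPM in the means of siNT and siCnot1, a log2 fold change of 0.032 (SE 0.0541). Scaled by library totals, both were called higher. Trim12c and Trim6 were named after their values had been seen.

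**Figure D5:**
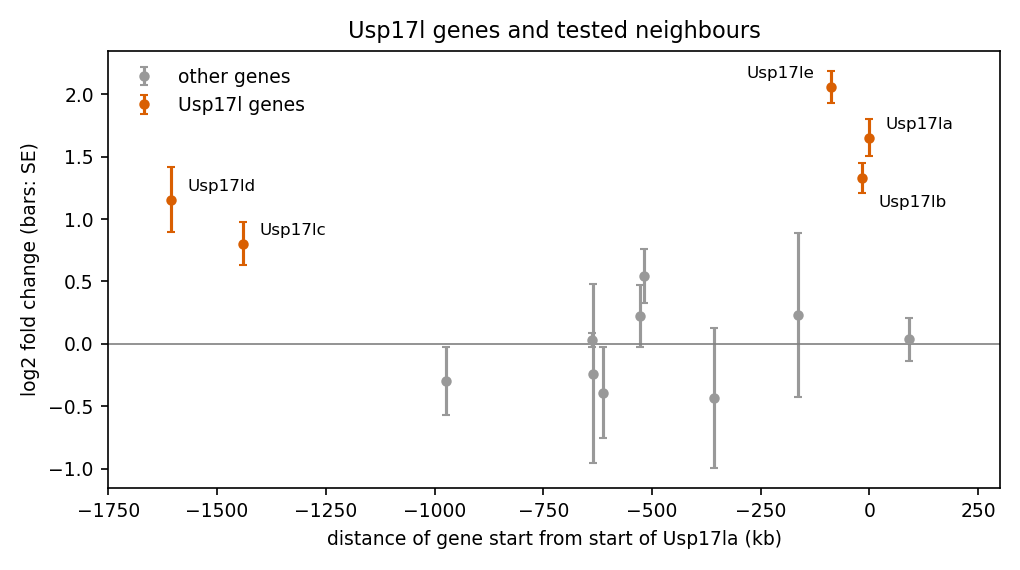
Log2 fold change of siCnot1 against siNT, with 1 standard error, against distance from the start of Usp17la in kb, for the 5 Usp17l genes and the 9 other tested genes within 500000 bases of the outermost members. The Usp17l genes lie between 0.80 and 2.06 and the other genes between -0.44 and 0.55.

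The remaining ubiquitin-specific proteases of the genome were called in both directions. Of 51 other Usp genes listed, 49 were tested, 5 were higher, 12 were lower and 32 were not called, with a median log2 fold change of -0.071. Over all genes tested 15.0% were higher and 14.7% lower, with a median of 0.0084. The higher ones included Usp25, at 1.05 (SE 0.170, adjusted p = 5.15e-05), from 4.64 to 9.62 normalized CPM, Usp35 at 0.62 (adjusted p = 0.00155) and Usp44, known for a role at the mitotic spindle checkpoint, at 0.62 (adjusted p = 4.05e-05). The lower ones included Usp2 at -0.61 (adjusted p = 0.0152), Usp45 at -0.35 (adjusted p = 0.00105) and Usp1, which acts on monoubiquitinated FANCD2 and PCNA, at -0.32 (adjusted p = 0.000149). The number of lower Usp genes went from 12 to 3 without a filter on low counts and to 4 with library totals, where the number over all genes tested went from 2668 to 1567. Of the 6 named, Usp25 kept its call with each library left out in turn. Without siNT replicate 1 the adjusted p from edgeR was 0.0735 for Usp35, 0.0603 for Usp44 and 0.137 for Usp2. Without siNT replicate 2 it was 0.0713 for Usp35, 0.218 for Usp2, 0.0812 for Usp45 and 0.0533 for Usp1, and without siCnot1 replicate 2 it was 0.174 for Usp2.

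Genes of proteins that have been described as substrates of human USP17 enzymes were examined for their mRNA only, which gives no measure of the proteins. Of 8 such genes 7 were tested, 1 was higher and 2 were lower, beside 15.0% higher and 14.7% lower over all genes tested. Rce1, the CAAX protease of Ras processing, was at 0.44 (adjusted p = 0.0029), from 17.2 to 23.3 normalized CPM. Ddx58, the cytosolic RNA sensor RIG-I, was at -0.50 (adjusted p = 0.000438), from 35.1 to 24.9, and Cdc25a, a phosphatase of cell cycle entry, was at -0.19 (adjusted p = 0.0231), from 146 to 128. The other 4 tested genes were not called. Among them, Suds3, of the Sin3 complex, had -0.020 (adjusted p = 0.858), and Mcl1, which protects from apoptosis, had -0.12 (adjusted p = 0.110). Snai1 had -0.14 (adjusted p = 0.836), and Ifih1 was too low to be tested. With library totals Cdc25a was not called. The call of Rce1 was lost without siNT replicate 1 (adjusted p = 0.0715, edgeR) or 2 (0.0734), that of Ddx58 without siNT replicate 2 (0.0602), and that of Cdc25a without any 1 of the libraries (0.0746 to 0.174).

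Among other genes of the 2-cell stage, the Zscan4 family of nuclear zinc finger proteins was set beside Usp17l. All 6 tested Zscan4 genes were called higher, against 15.0% of all genes tested, by 1.16 to 1.84 on the log2 scale (median 1.54). Their counts summed to 2212 and 2206 in the siNT libraries and 6313 and 6403 in the siCnot1 libraries, or 71.0 and 70.3 against 188 and 191 normalized CPM, a log2 fold change of 1.42 (SE 0.0617, adjusted p = 1.94e-13). Beside the Zscan4 sum, the Usp17l sum had a ratio of 0.401 and 0.414 in siNT against 0.413 and 0.449 in siCnot1, and the ranges overlapped. The log2 difference of the ratio, siCnot1 minus siNT, was 0.077 (two-sided exact permutation p = 0.667, of which 0.333 is the smallest this design allows), and leaving out each library in turn gave 0.017 to 0.14. With this number of libraries the test cannot reach 0.05.

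Of a list of 12 further 2-cell genes, 10 were tested, 5 were higher and 0 were lower in edgeR's quasi-likelihood test, also at an unadjusted p under 0.05, and 4 were higher and 0 lower with DESeq2 and with limma-voom. The median log2 fold change of the 10 was 0.85, against 0.0084 for all genes tested. The largest called changes were Tcstv1 at 2.68 (SE 1.00, adjusted p = 0.0463), which rests on 1 and 2 counts in siNT and 11 in each siCnot1 library, Tmem92 at 2.32 (SE 0.170, adjusted p = 1.11e-09) and Tdpoz3 at 1.72 (SE 0.266, adjusted p = 2.88e-05). The call of Tcstv1 was lost without any 1 of the libraries (adjusted p = 0.0979 to 0.165, edgeR). Duxf3, the transcription factor Dux that switches on many 2-cell genes, had 5 and 0 counts in siNT and 4 and 17 in siCnot1 and was not tested.

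By shape over the 4 libraries, the genes most like the Usp17l sum were taken from 11029 tested genes outside the family with a mean of at least 5 normalized CPM. Likeness was the root mean square difference of centred log2 CPM. The 5 closest were Zscan4d at 0.0256, Gm5039 at 0.0275, Sdc2, a heparan sulfate proteoglycan of the cell surface, at 0.0472, Zscan4e at 0.0593 and Gm21761 at 0.0710. Their log2 fold changes were 1.48, 1.49, 1.50, 1.60 and 1.37. With 4 libraries in 2 groups, most of this likeness is a like size of change.

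Markers of ESCs and of other cell types were read beside these results. The 8 ESC markers, Pou5f1, Nanog and Sox2 among them, summed to 6563 to 6784 normalized CPM in siNT and 5527 to 5868 in siCnot1, with 0 higher and 6 lower. Markers of haematopoietic cells, in which founding members of the family were described, summed to 5.59 to 5.80 in siNT and 5.61 to 7.97 in siCnot1, with Csf2rb at 0 in all libraries, and of 4 tested 0 were called by edgeR, 1 at an unadjusted p under 0.05, and 0 by DESeq2 and limma-voom after adjustment. Fibroblast markers summed to 17.0 to 20.2 against 25.1 to 29.1, with 2 of 4 tested higher and Col3a1 and Dcn at 0. Primitive endoderm markers summed to 11.1 to 13.2 against 20.6 to 21.5, with 2 of 5 tested higher, and trophoblast markers to 89.96 to 90.21 against 66.3 to 71.7, with 2 of 5 tested lower. Over all genes tested, 15.0% were higher and 14.7% lower. The part of these markers in the Usp17l changes was not tested.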

How the data were processed

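Poly(A)+ RNA from 2 siNT and 2 siCnot1 cultures, called independent biological replicates in the study's methods, was sequenced with paired ends after a dUTP protocol. The authors deposited raw counts per gene in 1 table, in the layout of featureCounts, without normalization or pooling, with gene positions and lengths. Per the labels, the submitters' processing notes name fastp 0.19.4, HISAT2 2.2.1, DESeq2 1.40.2 and mm10. The positions of all 5 Usp17l genes lie 350793 bases below those of GRCm38, with the same spans, and were taken as GRCm39. The strand setting and the treatment of reads that match several genes are not given in the sources used here, so reads of near-identical members may be divided, shared or dropped, and this can shift the single-gene values.

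Genes were filtered with filterByExpr (minimum count 10) and tested with edgeR 4.0.16 in R 4.3.3 (TMM, quasi-likelihood test, Benjamini-Hochberg over 18144 genes), with condition as the only term. The biological coefficient of variation was 0.0721. For a sum, the member rows were replaced by 1 row of summed counts and the whole table was fitted again. A standard error is |log2 fold change| over the square root of the F statistic. Normalized CPM are counts scaled to the TMM-corrected library size, given as mean ± SD. Exact permutation tests used scipy 1.17.1. Alternatives were upper-quartile scaling, DESeq2's size factors or library totals, no filter, at least 1 CPM in 2 libraries, DESeq2 1.42.0, limma-voom (limma 3.58.1), the replicate number as a block, and leaving out each library, where the lone library is assumed to vary like the other group.

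The members, gene lists and tests were chosen with earlier results of these data known. Named were the 5 members, Cnot1, the Zscan4 sum, up to 3 called Usp genes in each direction and up to 3 called 2-cell genes by size of change, called neighbours, every tested substrate gene but 1, which is not reported here, and the 5 genes most like the family sum. The partial sums by position were added after seeing the data. Transcripts (GENCODE M21) and promoters (RefSeq, GRCm38.p6) were joined by gene name, and no position of 1 build was set against the other except in the build check above. In RIG-I's case the table uses the older symbol Ddx58.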

Additional observations from a re-analysis of the deposited data

How the results depend on the processing

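The Usp17l sum stayed higher with an adjusted p under 0.05 in the 12 alternatives of scaling, filter, tool, block and left-out library, at log2 fold changes from 1.43 to 1.61. Keeping only members that passed the filter changed nothing, since all 5 passed, and sums over fewer members are given in the report. Leaving out each library in turn gave 1.43 to 1.57 for the sum and 4 to 5 members called higher, with the calls of Usp17lc and Usp17ld each lost without 1 siNT library, as given above. Usp17la, Usp17lb and Usp17le kept their calls in all 12 alternatives, at 1.48 to 1.85, 1.29 to 1.44 and 1.96 to 2.17. For the other Usp genes, 12 of which were lower, the number lower was 6 with upper-quartile scaling, 4 with library totals, 3 without a filter on low counts and 6 with the replicate block, and leaving out libraries gave 0 to 6 lower and 2 to 4 higher. Library totals gave 2 higher genes near the family in place of 0, Trim12c and Trim6. For the substrate genes, library totals gave 2 higher and 1 lower, no filter 1 lower, and leaving out libraries 0 to 1 in each direction. The cause was not tested. Over the whole table, with 2719 higher and 2668 lower in the reported fit, there were 1303 and 1450 without a filter (30308 genes tested), 3989 and 1567 with library totals, and 625 to 1989 and 705 to 1960 with a library left out.

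Both groups carry replicate numbers 1 and 2. Across 18144 genes, libraries with the same number deviated from their group means with a correlation of -0.0057, and the numbers were not taken as pairs. With the replicate block the Usp17l sum had a log2 fold change of 1.50 (adjusted p = 1.64e-09, edgeR), all 5 members were called higher, and 2524 genes were higher and 2431 lower. With same-numbered libraries paired, the ratio of the Usp17l sum to the Zscan4 sum gave an exact p of 0.5, the smallest that 2 pairs allow, with a higher ratio in siCnot1 in both. Depth limits Usp17ld most, since it had 50 to 155 counts per library.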

Other observations

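GGAC, the core of the usual site of the RNA mark m6A, was counted in the longest annotated transcript of each Usp17l gene, with no measurement of the mark itself. Usp17ld held 5.54 sites per kb, Usp17lc 4.16, Usp17lb 3.85, Usp17la 3.01 and Usp17le 2.65. The median over 21877 protein-coding genes was 3.93, with quartiles at 2.73 and 5.32, so Usp17le lay just below the lower quartile, Usp17ld just above the upper one and the other 3 between them. A pseudogene of the family, Usp17le-ps, was listed with 0 counts in all 4 libraries. Of the 100-base windows of Usp17le transcripts, 4.74% also occur in a gene outside the 5, against 3.02% for Usp17lb, 0.665% for Usp17la and 0% for Usp17lc and Usp17ld. With 50-base windows these shares were 14.5% for Usp17le, 11.5% for Usp17lb, 9.13% for Usp17la, 4.97% for Usp17lc and 6.04% for Usp17ld.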
